A study of Mus musculus with 16 samples.

Results

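Heparan sulphate proteoglycans and the enzymes that build and sulphate their sugar chains were examined in mouse melanoma models and in melanocytes. The set held 10 genes taken by name: the syndecans Sdc1, Sdc2, Sdc3 and Sdc4, the glypicans Gpc1, Gpc3 and Gpc4, the chain polymerase Ext1 and the sulphotransferases Hs6st1 and Hs6st2. A probe set, the group of oligonucleotides on the array that reports one transcript, was a member if its only gene symbol was one of these. There were 20 such probe sets among 22626, for 10 of the 12393 genes with a probe set of their own.

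Messenger RNA of 16 samples was hybridised to Affymetrix oligonucleotide arrays of the mouse genome. The controls, melanocytes of mice labelled as free of disease, gave 4 arrays, and the sources used here state no genotype for them. The iMet melanomas gave 6 arrays and carry the genotype Tyr-rtTA;Tet-Met;Ink4a/Arf-/-. The iHRAS* melanomas, titled iRas in the labels, gave 6 arrays and carry Tyr-rtTA;Tet-HRASV12G;Ink4a/Arf-/-. In both models a tyrosinase promoter drives the tetracycline-responsive activator, so that the oncogene is switched on in the melanocyte lineage of mice that lack Ink4a and Arf. Strain, age, sex and inducer are not stated there either. The tumour labels name isolated melanoma cells and the design text names RNA of cutaneous melanomas, and no label ties each array to an animal of its own, so p-values measure the spread between these samples. In such bulk samples fewer cells of a type and less RNA per cell cannot be told apart.

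Heparan sulphate is a long sulphated sugar chain carried by a core protein. Syndecans hold it on a membrane-spanning core and glypicans on a core tethered by a lipid anchor, while Ext1, acting with Ext2, elongates the chain and the Hs6st enzymes add sulphate at carbon 6 of its glucosamine units. Hepatocyte growth factor, the ligand of MET, and the fibroblast growth factors bind these chains, which act as co-receptors beside MET and the FGF receptors.

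The labels were checked first. The iMet tumours had the strongest signal of Met, the engineered receptor, with log2 9.47 ± 0.55 (SD, n = 6), followed by melanocytes with 8.29 ± 0.89 (SD, n = 4) and by iHRAS* tumours with 6.94 ± 0.77 (SD, n = 6). Of 8 melanocyte markers with a probe set, 5 (Tyr, Tyrp1, Dct, Mitf and Kit) lay under the low-signal cut-off of log2 6.21 on all 4 melanocyte arrays, whereas Sox10 read 9.66 ± 0.65 (SD, n = 4) there. Of 12 keratinocyte markers, 8 were above the cut-off on all 4 melanocyte arrays, with Krt14 at 12.73 ± 0.92 (SD, n = 4), while Krt15 was above it on 2, and Krt1, Cdh1 and Epcam on none. The mean of the 8 melanocyte markers was 4.78 to 5.94 in melanocytes, 5.21 to 5.88 in iMet and 5.94 to 7.81 in iHRAS* tumours. The tumour models did not overlap. Of 5 tested melanocyte markers, 3 were lower in iMet than in iHRAS* tumours and none higher. Against melanocytes, 2 were higher and 3 lower in iMet tumours. Sox10 read 6.90 ± 0.53 (SD, n = 6) in iMet and 10.16 ± 0.70 (SD, n = 6) in iHRAS* tumours. Mitf had a mean of 7.555 in iMet and 7.339 in iHRAS* tumours, and Kit 6.888 and 6.932. The mean of the keratinocyte markers was 7.44, 9.24, 6.51 and 9.02 on melanocyte arrays 1 to 4, and that of 8 fibroblast markers was 10.45, 8.80, 11.18 and 8.04. In tumours the keratinocyte mean ran from 4.54 to 9.09 in iMet and from 8.59 to 10.64 in iHRAS*, with 4 of 11 tested markers lower in iMet and none higher. The mean of 6 Schwann cell and neural crest markers did not overlap between the models, at 3.27 to 5.0 in iMet and 7.25 to 8.85 in iHRAS*, and was 6.87 to 8.55 in melanocytes. Endothelial means were 7.63 to 9.19 in iMet, 6.56 to 7.68 in iHRAS* and 3.56 to 4.85 in melanocytes, and macrophage means were 9.34 to 10.30, 8.23 to 9.81 and 4.47 to 4.84. The fibroblast mean was 11.67 to 12.55 in iMet and 11.90 to 12.75 in iHRAS*. The adipocyte and skeletal muscle means were highest on iMet array 5, at 8.52 and 9.40, and ran from 2.98 to 6.43 and from 3.88 to 8.95 on the other arrays. Xist, the transcript that silences an X chromosome in female cells, read 6.33 on iHRAS* array 6, 6.6 on iHRAS* array 5 and 10.92 to 13.07 on the other 14 arrays. Eif2s3y, a gene of the Y chromosome, read 6.40 on iHRAS* array 5, 7.20 on iHRAS* array 6 and −1.499 to 1.325 on the other 14. By both genes iHRAS* arrays 5 and 6 read as male and the other 14 as female. The part of these cell types and of sex in the results was not tested.

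Between the tumour models the members moved in both directions. Sdc1, Gpc1, Hs6st1 and Hs6st2 were lower in iMet than in iHRAS* tumours, and Sdc2, Gpc4 and Ext1 were higher, by 1.77-fold (Sdc2) to 3.82-fold (Gpc1) for those above the cut-off on every array. Hs6st2 was under the cut-off on 5 of the 6 iMet arrays and passed the filter through the iHRAS* arrays, and with dim values raised to the cut-off its reduction was 2.00-fold. Sdc3 and Sdc4 did not pass the test, and Gpc3 lay under the cut-off on every array and was not tested. In all, 7 of 9 tested members were called in limma at a Benjamini-Hochberg adjusted p under 0.05. Of all 8058 genes tested 20.9% were called, 11.2% higher and 9.70% lower in iMet. The members were chosen with earlier results of these data known, so their higher share is no independent test of the set. The 3 calls with the smallest p (Gpc1, Ext1 and Sdc1) had groups that did not overlap, as had 10.7% of all genes, and they were called under every alternative tried. The count was 3 without iHRAS* arrays 5 and 6, namely these same genes, and 4 without iMet array 6 or without iHRAS* array 5 or 6. With the values as deposited the median gene was 0.23 log2 higher in iMet, against 0.026 here, and 80.1% of the calls were increases, against 53.6% here.

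**Figure D1:**
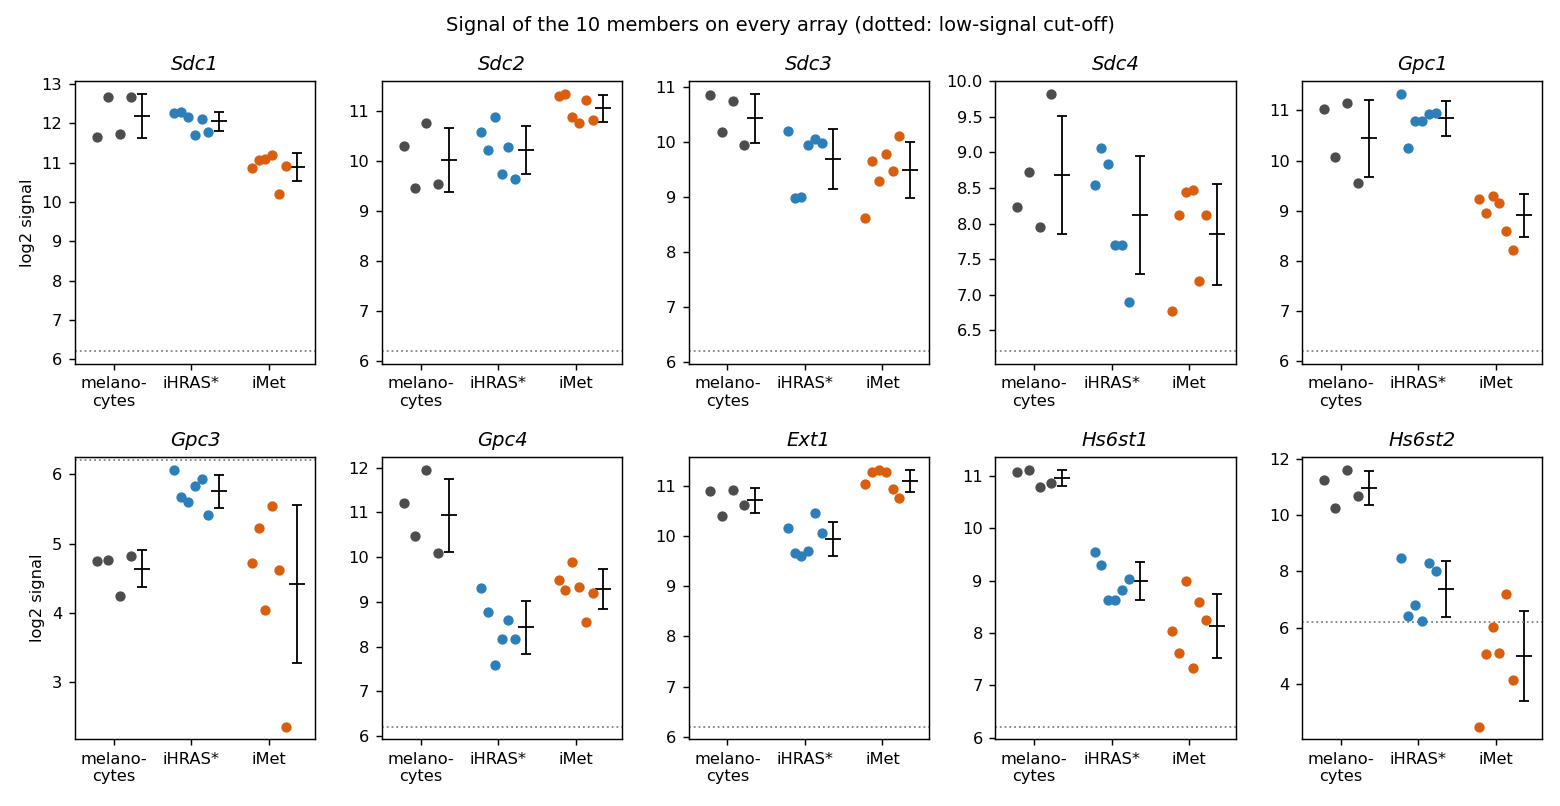
Log2 signal (vertical axis, a separate scale in each panel) of the probe set that represents each member, with 1 point per array for melanocytes (4), iHRAS* tumours (6) and iMet tumours (6), and the mean with its SD beside the points. The iMet points of Sdc1 and Gpc1 lie below all iHRAS* points, those of Ext1 lie above them, and all Gpc3 points lie under the dotted cut-off of 6.21.

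Against melanocytes more members were called lower than higher in each model. In iMet tumours 6 of the 9 tested members were lower (Sdc1, Sdc3, Gpc1, Gpc4, Hs6st1 and Hs6st2) and Sdc2 was higher. That is 77.8% called, beside 35.1% of 8651 genes, 18.7% lower and 16.4% higher. The groups did not overlap for 5 of the 9 (27.7% of all genes). In iHRAS* tumours 4 were lower (Gpc4, Ext1, Hs6st1 and Hs6st2) and none was higher, 44.4% of those tested. This share is near that of all genes, of which 39.3% were called, 21.3% lower and 18.1% higher. The groups did not overlap for 3 of the 9 (25.3% of all genes). Both comparisons use the same 4 melanocyte arrays, and here too the members were chosen with earlier results of these data known. With each array centred on its median, the median gene was 0.22 log2 lower in iMet and 0.23 lower in iHRAS* tumours than in melanocytes, against 0.082 and 0.089 lower here, and 33.8% and 34.2% of the calls were increases, against 46.6% and 46.0% here. As deposited, 35.6% of the iHRAS* calls were increases, and 56% of the iMet calls.

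**Figure D2:**
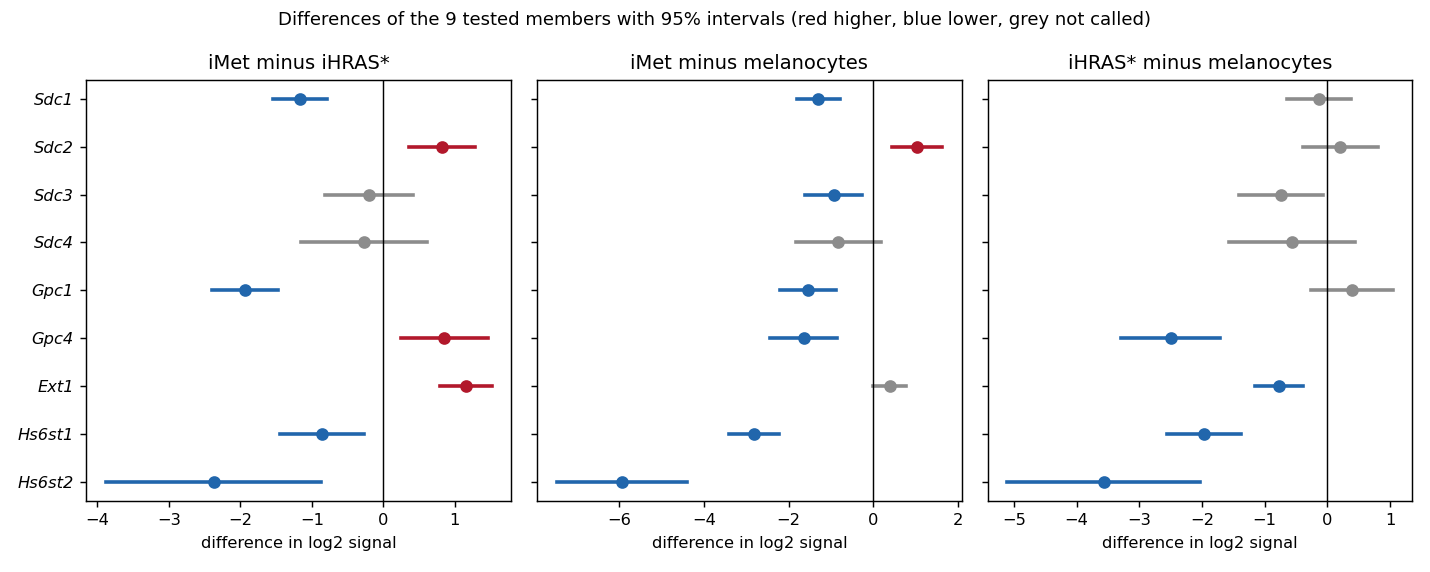
Difference in log2 signal (horizontal axis, a separate scale in each panel) of the 9 tested members in the 3 comparisons, with limma's 95% interval as a line; red members were called higher, blue ones lower and grey ones were not called. Hs6st1 and Hs6st2 are blue in all 3 panels, and the interval of Ext1 lies above 0 between the models and below 0 for iHRAS* against melanocytes.

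Ext1, the polymerase subunit, was the member with a clear gain in iMet over iHRAS* tumours. Its log2 signal ran from 10.76 to 11.31 in iMet tumours, with a median of 11.15, and from 9.60 to 10.46 in iHRAS* tumours, with a median of 9.87. Melanocyte arrays 1 to 4 read 10.90, 10.40, 10.92 and 10.62. Every iMet tumour stood above every iHRAS* tumour, and the melanocytes lay between the 2 group means. iMet tumours exceeded iHRAS* tumours 2.23-fold, a difference of 1.16 ± 0.17 log2 (SE; limma adjusted p = 0.00068). The iHRAS* level differed from that of melanocytes by −0.77 ± 0.18 (SE; adjusted p = 0.004), with array 5 at 10.46 inside the melanocyte range. That call was lost without melanocyte arrays 1 and 3, at −0.57 (adjusted p = 0.0703). For iMet tumours the interval of the difference from melanocytes was −0.0018 to 0.77 log2 (adjusted p = 0.112).

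Syndecan-1 is the syndecan of epithelia and plasma cells and binds growth factors through its chains. The probe set that represents Sdc1 read 10.20 to 11.19 in iMet tumours, with a median of 10.99, and 11.72 to 12.29 in iHRAS* tumours, with a median of 12.13. Melanocyte arrays 1 to 4 read 11.67, 12.67, 11.73 and 12.68. No iMet tumour reached the lowest iHRAS* tumour or melanocyte array. The difference was −1.17 ± 0.17 log2 (SE) from iHRAS* tumours (limma adjusted p = 0.000862) and −1.30 ± 0.24 from melanocytes (adjusted p = 0.000803), a 2.25-fold and a 2.46-fold reduction. Each probe set with 1 symbol was also tested by itself, which called 19.3% of probe sets between the models and 32.6% (iMet) and 38.0% (iHRAS*) against melanocytes. The other 3 probe sets of Sdc1 were called lower than in iHRAS* tumours and than in melanocytes, at −1.02 to −1.27 between the models and −1.30 to −1.82 against melanocytes. One of them overlapped between the models through iHRAS* array 4 at 8.96. iHRAS* tumours and melanocytes were not distinguished, with an interval of −0.64 to 0.38 log2 (adjusted p = 0.689). The keratinocyte mean was lower in iMet tumours too, with 9.09 and 9.08 on arrays 2 and 6, inside the iHRAS* range, and lower values on the other 4. Sdc1 read 11.07 and 10.92 on those arrays. The part of these markers in the difference was not tested. Among the melanocyte arrays, Sdc1 was high on arrays 2 and 4, the ones with the higher keratinocyte means.

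Syndecan-2, found mainly in mesenchymal cells, moved the opposite way. Sdc2 read 10.75 to 11.34 in iMet tumours, with a median of 11.05, against 9.65 to 10.88 in iHRAS* tumours, with a median of 10.25. Melanocyte arrays 1 to 4 read 10.31, 9.46, 10.77 and 9.54, high on the arrays with the higher fibroblast means. iHRAS* array 3, at 10.88, and melanocyte array 3, at 10.77, reached into the iMet range. The increase in iMet was 0.82 ± 0.21 log2 (SE) over iHRAS* tumours (limma adjusted p = 0.0161) and 1.03 ± 0.28 over melanocytes (adjusted p = 0.0105). The other 2 probe sets gave 0.89 and 0.87 between the models, both called, and 0.89 and 0.83 against melanocytes, which were not called when each probe set was tested (adjusted p = 0.0555 and 0.0773). The call between the models was lost without iHRAS* arrays 5 and 6, at 0.69 (adjusted p = 0.0628), and the call against melanocytes was lost without melanocyte arrays 2 and 4, at 0.51 (adjusted p = 0.237), and with arrays centred on their medians, at 0.75 (adjusted p = 0.0629). The fibroblast means of the tumour models overlapped, with 1 of 8 tested markers called higher in iMet tumours and 1 lower. Against melanocytes the fibroblast mean was 2.44 log2 higher in iMet tumours, without overlap. Of the 8 tested markers, 6 were called higher in that comparison and none lower. The part of these markers in the Sdc2 differences was not tested.

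Sdc3, a syndecan best known from neural tissue, read 8.62 to 10.12 in iMet and 8.99 to 10.20 in iHRAS* tumours, and 10.86, 10.18, 10.75 and 9.94 on melanocyte arrays 1 to 4. The tumour groups overlapped almost completely, and the interval of their difference was −0.82 to 0.41 log2 (limma adjusted p = 0.649). The iMet level was 0.94 ± 0.31 log2 (SE) below that of melanocytes (adjusted p = 0.0298), a call that was lost without melanocyte array 1 or 3 or iMet array 1 or 3 (adjusted p = 0.0537 to 0.0978) and without melanocyte arrays 1 and 3 together, at −0.57 (adjusted p = 0.305). The iHRAS* difference of −0.74 ± 0.31 did not pass (adjusted p = 0.0726). It passed with the values as deposited, at −1.0 (adjusted p = 0.0262), and with arrays centred on their medians, at −1.02 (adjusted p = 0.0134). Of the other 2 probe sets of Sdc3, one was called lower in both models than in melanocytes, at −1.30 in iMet and −1.24 in iHRAS* tumours (adjusted p = 0.00942 and 0.0109), and one was called in neither. Over the 16 arrays the 3 probe sets correlated at 0.192 to 0.717, so the gene's reading depends on which is taken.

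Sdc4, the syndecan of focal adhesions, gave no call in any comparison. It read 6.76 to 8.47 in iMet tumours and 6.90 to 9.06 in iHRAS* tumours, and 8.23, 8.72, 7.95 and 9.82 on melanocyte arrays 1 to 4. The 3 groups overlapped. The interval of the difference between the models was −1.15 to 0.60 log2 (limma adjusted p = 0.669), of iMet tumours from melanocytes −1.84 to 0.17 (adjusted p = 0.183) and of iHRAS* tumours from melanocytes −1.57 to 0.45 (adjusted p = 0.365). The 2 probe sets of Sdc4 correlated at 0.269 over the 16 arrays.

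**Figure D3:**
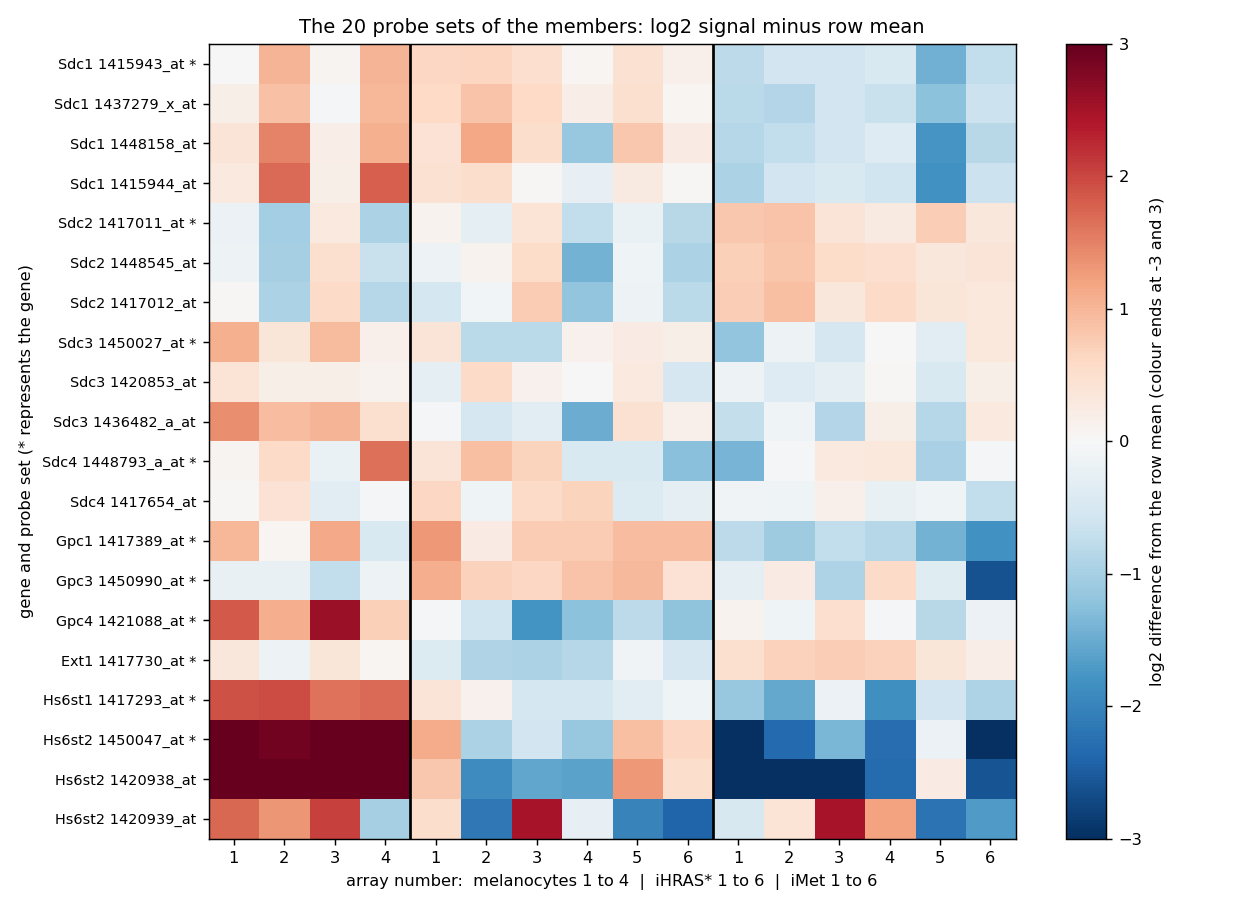
Log2 signal minus the mean of its row for the 20 probe sets of the members (rows) on the 16 arrays (columns, by group and array number); the colour scale ends at −3 and 3 and the star marks the probe set that represents a gene. The 4 rows of Sdc1 share one pattern and the 3 rows of Sdc2 share another, whereas the rows of Sdc3, Sdc4 and Hs6st2 differ among themselves.

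Glypican-1 showed the smallest p of the members between the models. Gpc1, which holds heparan sulphate at the surface of many cell types, read 8.21 to 9.29 in iMet tumours, with a median of 9.06, and 10.26 to 11.33 in iHRAS* tumours, with a median of 10.86. Melanocyte arrays 1 to 4 read 11.02, 10.08, 11.15 and 9.55. All iMet tumours were below all arrays of the other groups. The difference was −1.93 ± 0.21 log2 (SE) from iHRAS* tumours, a 3.82-fold reduction (limma adjusted p = 0.00016), and −1.54 ± 0.31 from melanocytes (adjusted p = 0.00142). Leaving out any 1 array kept the first between −2.05 and −1.80 and the second between −1.84 and −1.31. iMet arrays 2 and 6, with keratinocyte means inside the iHRAS* range, read 8.97 and 8.21 for Gpc1. The neural crest marker mean was lower in iMet tumours than in both other groups. Of its 5 tested markers, 4 were called lower in iMet tumours than in melanocytes and none higher. The part of either marker list in the Gpc1 differences was not tested. iHRAS* tumours and melanocytes were not distinguished (0.39 ± 0.31; adjusted p = 0.325), but without melanocyte arrays 1 and 3 Gpc1 was higher in iHRAS* tumours by 1.03 (adjusted p = 0.0202) and without arrays 2 and 4 it was at −0.24 (adjusted p = 0.579).

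Glypican-4 was lower in both tumour models than in melanocytes. Gpc4 read 11.21, 10.47, 11.96 and 10.10 on melanocyte arrays 1 to 4, against 8.55 to 9.89 in iMet tumours, with a median of 9.30, and 7.59 to 9.31 in iHRAS* tumours, with a median of 8.38. No tumour reached the lowest melanocyte array, and the tumour groups overlapped. The difference from melanocytes was −1.65 ± 0.37 log2 (SE), or 3.14-fold, in iMet tumours (limma adjusted p = 0.0031) and −2.50 ± 0.37, or 5.67-fold, in iHRAS* tumours (adjusted p = 0.000132). The iMet call was lost without melanocyte arrays 1 and 3, at −1.0 (adjusted p = 0.0744). Between the models Gpc4 was 0.85 ± 0.28 higher in iMet tumours (adjusted p = 0.0478), close to the threshold. That call remained only without iMet array 5 or iHRAS* array 1 among the 12 fits that left out 1 tumour array (adjusted p = 0.0173 to 0.101 over the 12).

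Gpc3, a glypican of growth control in the embryo whose gene lies next to Gpc4 on the X chromosome in the GRCm38.p6 gene table, was under the cut-off on all 16 arrays. It read 2.36 to 5.54 in iMet tumours, 5.42 to 6.07 in iHRAS* tumours and 4.75, 4.76, 4.24 and 4.82 on melanocyte arrays 1 to 4. Every iHRAS* array was above every melanocyte array (exact permutation p = 0.004762, two-sided and unadjusted, the smallest that 6 against 4 arrays allow). Groups did not overlap for 25.3% of the genes tested in that comparison, among which Gpc3 was not. Between the models iMet array 4, at 5.54, overlapped the iHRAS* range (exact permutation p = 0.004329, two-sided and unadjusted). At such signals the size of a difference is poorly measured, and no fold is given.

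The 6-O-sulphotransferases gave the largest differences between iMet tumours and melanocytes among the tested members. Hs6st1 read 11.09, 11.12, 10.80 and 10.86 on melanocyte arrays 1 to 4. It read 8.63 to 9.54 in iHRAS* tumours, with a median of 8.93, and 7.34 to 8.99 in iMet tumours, with a median of 8.14. The melanocyte arrays were tightly grouped and stood above every tumour, while iMet array 3, at 8.99, lay inside the iHRAS* range. The difference from melanocytes was −2.83 ± 0.28 log2 (SE) in iMet tumours, or 7.10-fold (limma adjusted p = 3.06e-06), and −1.97 ± 0.28 in iHRAS* tumours, or 3.92-fold (adjusted p = 9.02e-05). Both calls were kept under every alternative tried, including without either pair of melanocyte arrays. Between the models the difference was −0.86 ± 0.27 (adjusted p = 0.041). It lost its call in 8 of 12 fits that left out 1 array, at −0.89 to −0.70 (adjusted p = 0.0554 to 0.083), with the values as deposited, at −0.58 (adjusted p = 0.163), and without iHRAS* arrays 5 and 6, at −0.89 (adjusted p = 0.0937).

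Hs6st2 was bright in melanocytes and dim in tumours. The representing probe set read 11.24, 10.26, 11.61 and 10.66 on melanocyte arrays 1 to 4, 6.25 to 8.48 in iHRAS* tumours, with a median of 7.40, and 2.49 to 7.19 in iMet tumours, with a median of 5.07. Only 1 iMet array, array 5, exceeded the cut-off of 6.21, whereas all iHRAS* arrays did. The fitted difference from melanocytes was −5.94 ± 0.72 log2 (SE) in iMet tumours (limma adjusted p = 2.5e-05) and −3.57 ± 0.72 in iHRAS* tumours, or 11.9-fold (adjusted p = 0.00146). With every value under the cut-off raised to it, the iMet reduction was 23.7-fold, which is the more cautious figure for so dim a signal. The second probe set was above the cut-off on the 4 melanocyte arrays and on no tumour array. It passed the filter through the melanocyte arrays alone, where it is high, and was then called lower in both models, which is no separate support. Its mean of 7.96 in melanocytes against the cut-off makes the reduction at least 3.36-fold in each model. The remaining probe set was under the cut-off on every array and has no reading here. Between the models the difference was −2.37 ± 0.69 (adjusted p = 0.0293), 5.18-fold as fitted and 2.00-fold with dim values raised to the cut-off. The call was lost without iMet array 6 or without iHRAS* array 1, 5 or 6 (adjusted p = 0.0583 to 0.0612), and without iHRAS* arrays 5 and 6 together, at −1.99 (adjusted p = 0.122). Hs6st2 lies on the X chromosome. iHRAS* arrays 5 and 6, with low Xist and with Eif2s3y above the cut-off, read 8.28 and 8.0. Both lie in the upper part of the iHRAS* range beside array 1 at 8.48. Gpc4, also on the X chromosome, read 8.60 and 8.16 on these arrays, inside its iHRAS* range of 7.59 to 9.31. The part of sex was not tested. Between the models Hs6st2 passed the low-signal filter through the iHRAS* arrays, where it is high.

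Gpc4, Hs6st1 and Hs6st2 were the members called lower in each model against the shared melanocyte arrays, and their promoter windows show how differently such genes can begin. The 250 bases before the annotated start are printed from RefSeq (GRCm38.p6), 5′ to 3′ on the gene's own strand, with capitals for a GC box (GGGCGG on either strand) or a TATA box (TATAAA on either strand). The Hs6st1 window is chr1:36068150-36068399 on the plus strand, that of Hs6st2 is chrX:51681603-51681852 on the minus strand and that of Gpc4 is chrX:52164924-52165173 on the minus strand.
Hs6st1: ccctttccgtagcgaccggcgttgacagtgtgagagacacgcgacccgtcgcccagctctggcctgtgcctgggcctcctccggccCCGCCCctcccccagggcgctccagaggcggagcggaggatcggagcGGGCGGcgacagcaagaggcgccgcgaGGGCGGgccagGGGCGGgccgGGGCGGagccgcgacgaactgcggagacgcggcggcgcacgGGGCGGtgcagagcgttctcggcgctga
Hs6st2: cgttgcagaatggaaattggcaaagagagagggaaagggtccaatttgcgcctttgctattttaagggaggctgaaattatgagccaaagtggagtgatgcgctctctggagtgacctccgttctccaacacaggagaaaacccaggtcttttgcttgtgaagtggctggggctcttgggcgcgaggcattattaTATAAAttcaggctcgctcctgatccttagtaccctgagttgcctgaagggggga
Gpc4: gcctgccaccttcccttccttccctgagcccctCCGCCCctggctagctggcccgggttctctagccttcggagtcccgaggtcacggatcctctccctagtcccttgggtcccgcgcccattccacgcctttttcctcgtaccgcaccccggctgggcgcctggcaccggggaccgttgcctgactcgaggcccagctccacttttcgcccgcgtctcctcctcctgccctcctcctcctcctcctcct
The Hs6st1 window is 76.4% G or C with 37 CpG dinucleotides, and its 6 GC boxes begin 164, 117, 90, 79, 69 and 28 bases before the start. The Hs6st2 window has 7 CpG dinucleotides, no GC box and 1 TATA box that begins 55 bases before the start. The Gpc4 window is 68.4% G or C with 18 CpG dinucleotides and 1 GC box. Of 32851 windows of the same length, 32.7% hold a GC box and 12.4% a TATA box, and the medians are 52.4% G or C and 6 CpG dinucleotides. None of the 3 windows held the E-box CACGTG (6.02% of all windows), the related CATGTG (12.3%) or the AP-1 motif TGANTCA (6.75%), all searched on both strands. A match or its absence describes the letters of this window alone. RefSeq gives Hs6st2 a second start, whose window is 72.0% G or C with no GC box or TATA box.

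The other genes of the pathway were counted from lists of core proteins, synthesis, modification, degradation, ligands and partners. These lists too were chosen with earlier results of these data known. Of 71 genes, 63 had a probe set and 51 were tested between the models, where 7 were higher and 6 lower in iMet tumours, 25.5% of those tested beside 20.9% of all genes. The median difference was −0.022 log2 beside 0.026 for all genes. In the chain synthesis list none of 9 tested genes was called in limma at that threshold, so that Ext1 was called while its partner Ext2 differed by −0.084 log2 (adjusted p = 0.725).

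Beside the 20.9% of all genes called between the models, the lists gave these calls. Among other core proteins, 2 of 6 were higher in iMet than in iHRAS* tumours and 1 was lower. Agrn, the basement membrane proteoglycan agrin, read 7.66 to 9.10 in iMet and 9.87 to 10.81 in iHRAS* tumours and differed by −1.74 ± 0.24 log2 (SE; limma adjusted p = 0.000624). The co-receptor Tgfbr3 rose by 1.24 ± 0.30 (adjusted p = 0.0131) and the glypican Gpc6 by 0.81 ± 0.22 (adjusted p = 0.0213). In the modification list the sulphate transporter gene Slc26a2 was the 1 call among 8 tested, at −1.62 ± 0.19 (adjusted p = 0.000256), from 8.75 to 9.81 in iHRAS* tumours to 6.93 to 7.84 in iMet tumours. Of 6 degradation genes only Naglu was called, at 0.44 ± 0.14 (adjusted p = 0.0381).

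Ligands and receptors that bind heparan sulphate gave 5 calls among 10 tested between the models, beside 20.9% of all genes. Met and the chemokine Cxcl12 were higher in iMet tumours, by 2.53 ± 0.35 and 2.38 ± 0.62 log2 (SE; limma adjusted p = 0.000624 and 0.0168). The growth factor Hbegf was lower, at −2.42 ± 0.45 (adjusted p = 0.0032). The fifth call, named here after its value was seen, was Fgfr1, higher by 1.20 ± 0.20 (adjusted p = 0.00156). The growth factor Mdk was under the cut-off on all 6 iMet arrays and at 6.98 to 10.37 on the iHRAS* arrays, through which it passed the filter, so its reduction was at least 4.69-fold with iMet values at the cut-off (adjusted p of the fitted difference = 0.00399). Among 12 syndecan partners and sheddases 3 were called. Prkca, the kinase bound by syndecan-4, rose by 1.34 ± 0.17 (adjusted p = 0.000407), and Tiam1 and Ezr were lower, at −1.18 ± 0.31 and −0.93 ± 0.31 (adjusted p = 0.0173 and 0.0494). Endothelial and macrophage marker means were higher, and keratinocyte, neural crest and melanocyte means lower, in the iMet tumours of these comparisons.

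**Figure D4:**
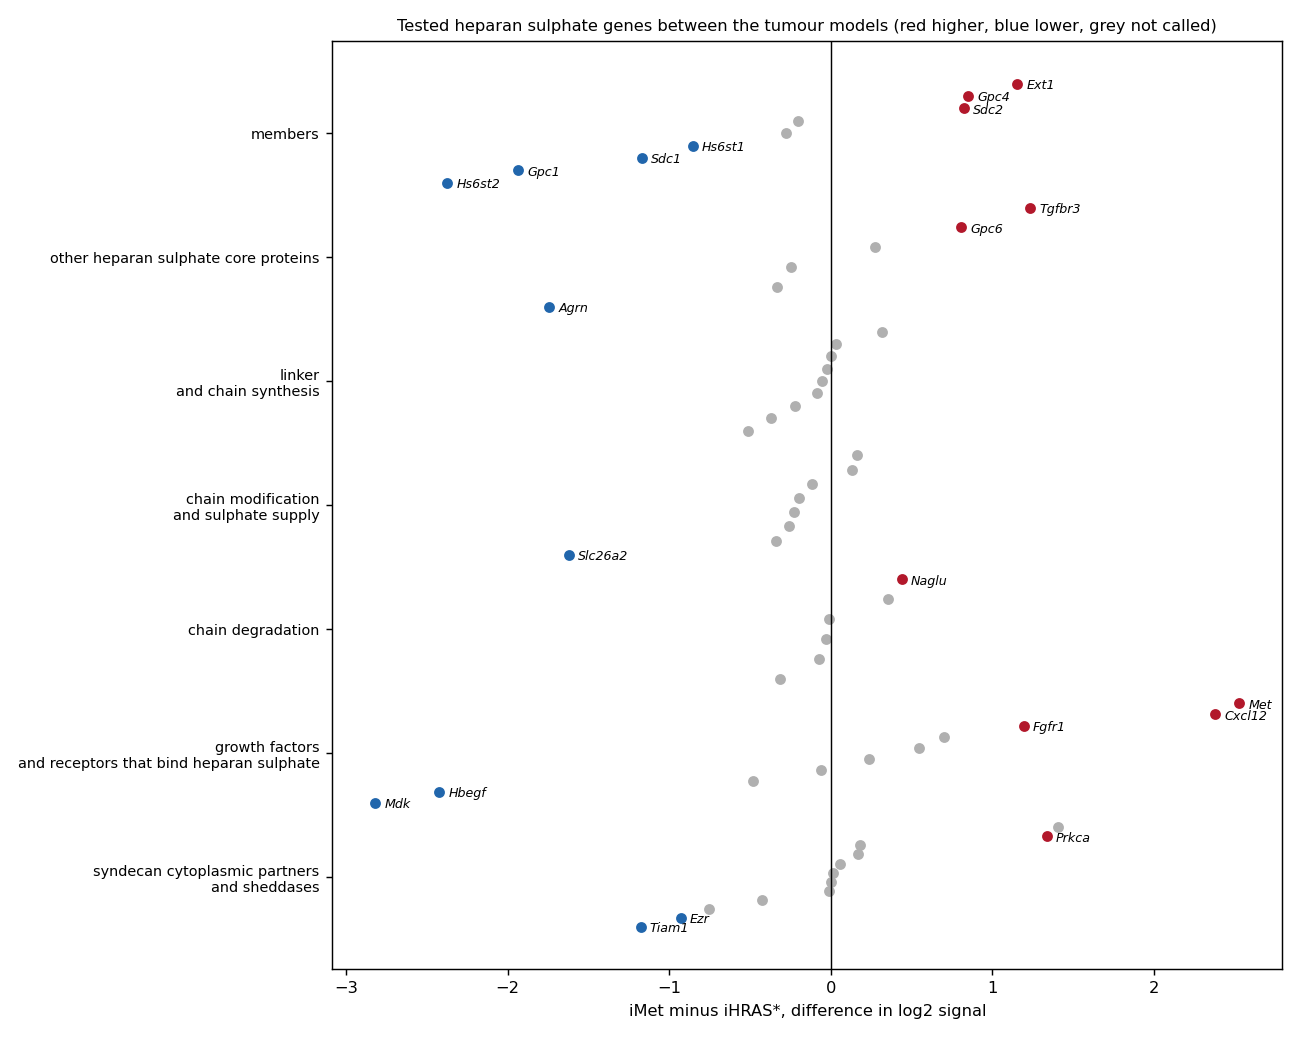
Difference in log2 signal between iMet and iHRAS* tumours (horizontal axis) of each tested gene, by list, with the members on top; red genes were called higher in iMet, blue ones lower and grey ones were not called. The chain synthesis list holds grey points only, and the ligand list reaches from Mdk, fitted at −2.82 with its iMet arrays under the cut-off, to Met at 2.53.

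Against melanocytes, 14 of 54 tested pathway genes were higher and 11 lower in iMet tumours, and 8 were higher and 9 lower in iHRAS* tumours, that is 46.3% and 31.5% called beside 35.1% and 39.3% of all genes. Hs3st1, which adds a rarer sulphate to the chain, was called lower in both (limma adjusted p = 0.000474 and 0.00992) and passed the filter mainly through 3 of the 4 melanocyte arrays. It was under the cut-off on all 6 iMet arrays and on 5 of 6 iHRAS* arrays, and with dim values raised to the cut-off the reductions were 1.96-fold and 1.92-fold. Ndst2, which removes acetyl groups from the chain and adds sulphate in their place, was higher in both, by 0.95 ± 0.19 and 0.82 ± 0.19 log2 (SE; limma adjusted p = 0.00121 and 0.0031). Agrn was lower in iMet tumours than in melanocytes, at −2.37 ± 0.27 (adjusted p = 1.05e-05). Srgn, the proteoglycan of blood cell granules, was under the cut-off on every melanocyte array, at 1.14 to 3.95. It read 10.12 to 11.65 in the tumours. Macrophage, endothelial and fibroblast marker means were also higher in both tumour groups than in melanocytes. Their part in the Srgn difference was not tested. The sheddase gene Adam17 rose by 1.13 ± 0.18 in iMet and 1.07 ± 0.18 in iHRAS* tumours (adjusted p = 0.00029 and 0.000426), and the gelatinase Mmp9, under the cut-off on 2 of 4 melanocyte arrays, by 9.26-fold and 3.5-fold with dim values raised to the cut-off (adjusted p of the fitted differences = 0.000524 and 0.0137). Of 9 tested genes of linker and chain synthesis only Extl2 was called, lower in both models by about the same amount (−0.52 ± 0.14 in each).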

How the data were processed

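The authors deposited 1 table of values for 16 arrays and 22690 probe sets. The deposited values ran from −4.07 to 14.53 and were taken as log2 signal from this range; the summary of probes and any normalization are not stated in the sources used here. Column medians spread by 0.719, more than the 0.3 set as a limit, so values were quantile-normalized after 64 control probe sets were left out. Quantile normalization makes every difference relative to the rest of the array. Of 22626 probe sets, 20380 had 1 symbol in the platform annotation, 691 several and 1555 none; 20351 matched the gene table by gene ID. Where a gene had several probe sets, the one of highest mean signal stood for it. A gene entered a fit if it exceeded log2 6.21, the 40th percentile, on at least the number of arrays in that fit's smallest group.

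Differences were fitted with limma 3.58.1 in R 4.3.3 (lmFit, eBayes, two-sided) on the 12 tumour arrays for the models and on all 16 for melanocytes, and p-values were adjusted over all genes by Benjamini-Hochberg; a gene is called at an adjusted p under 0.05. Other probe sets were tested in a fit of every probe set with 1 symbol. Intervals are limma's 95% intervals. The fits were tested on simulated data. The number of arrays limits the precision. Members and lists were chosen with earlier results of these data known. Named genes are all members, up to 4 called genes of each list with the largest difference, Met, and the 3 genes most like each member; others were chosen after their values were seen. Each array was left out in turn, and other scalings, filters, probe set rules and sample sets were tried.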

Additional observations from a re-analysis of the deposited data

Results flagged for a closer look

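Of 30 groups of values examined, 10 members in 3 groups, 2 held an array far from the others of its group, and chance alone marks about 1 in 20 such groups. Sdc1 was at log2 10.20 on iMet array 5, while the other 5 iMet arrays lay between 10.86 and 11.19. The other 3 probe sets of Sdc1 were also lowest among iMet tumours on that array, at 9.55, 8.32 and 8.09. The same array had the highest adipocyte and skeletal muscle marker means of all 16, at 8.52 and 9.40, against at most 6.43 and 8.95 on the others, and their part in its Sdc1 value was not tested. Without it the difference from iHRAS* tumours was smallest among the fits that left out 1 array, at −1.03, and it was still called (limma adjusted p = 0.000695 to 0.00305 over the 12 fits). Gpc3 was at 4.24 on melanocyte array 3 and between 4.75 and 4.82 on the other 3, all of them under the low-signal cut-off of 6.21.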

How the results depend on the processing

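Sdc1, Gpc1 and Ext1 between the models, Sdc1, Gpc1, Hs6st1 and Hs6st2 for iMet tumours against melanocytes, and Gpc4, Hs6st1 and Hs6st2 for iHRAS* tumours against melanocytes kept their direction and their call under every alternative run. The count of members called between the models was 7, and 4 with no filter on low values, 3 without iHRAS* arrays 5 and 6, and 4 to 7 when 1 array was left out. Of 6 pairs of tumour arrays that share a replicate number in the labels, 2 correlated above 0.1, from −0.225 to 0.107. Arrays with different numbers were not compared in this way, so pairing by replicate number was not excluded. With the number as a replicate block the count was 4, with Gpc4, Hs6st1 and Hs6st2 lost, and the counts against melanocytes were 7 and 4 as before. Counts against melanocytes with 1 array left out were 6 to 7 for iMet and 4 for iHRAS*. Of the pathway genes, 17 were called for iHRAS* against melanocytes, 8 without melanocyte arrays 2 and 4, and 11 to 20 with 1 array left out, the lowest without melanocyte array 4; counts were 11 to 15 between the models and 18 to 25 for iMet against melanocytes. Uncalled differences changed sign as follows. As deposited, Sdc3 was at 0.037 between the models and Sdc2 at −0.033 for iHRAS* against melanocytes, and Sdc2 was at −0.049 with arrays centred on their medians. Without melanocyte arrays 2 and 4, the iHRAS* differences from melanocytes were 0.36 for Sdc1, −0.31 for Sdc2, 0.031 for Sdc4 and −0.24 for Gpc1, and with 1 array left out that of Sdc1 ran from −0.30 to 0.033. The cause of these changes was not tested. Hs6st2 has no value between the models with the filter at the 60th percentile or with the mean of its probe sets, where it was not tested. Signals near the cut-off, as for Hs6st2 in iMet tumours and Gpc3 everywhere, are limited by the background of the array.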

Other observations

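Across the 16 arrays, the tested genes whose pattern was most like that of a member were listed by Pearson's correlation, as a description over arrays that share 3 groups. For Hs6st2 they were Mapre3 (0.926), Gstm2 (0.902) and Hs6st1 (0.897), of 8650 genes compared. Hs6st1 and Hs6st2 were both called lower in each model than in melanocytes, so this correlation is no separate support. Hs6st2 also exceeded the cut-off on only 1 iMet array. The genes most like Hs6st1 were Coprs (0.937), Wsb2 (0.933) and Rnd3 (0.919), without Hs6st2. Those most like Gpc4 were Arhgef2 (0.906), Eloc (0.906) and Unc5b (0.900), a netrin receptor. Ext1 was most like Glipr2 (0.934), Dpysl3 (0.917) and the caveolar gene Cavin2 (0.911), and Gpc1 most like Sidt2 (0.923), Hacd3 (0.908) and the neuronal hydrolase Uchl1 (0.897). Sdc1 was most like Slc9a3r1 (0.910), a scaffold of epithelial membranes, Chn2 (0.894) and Greb1 (0.891), and Sdc2 most like Tmem167 (0.860), the laminin chain Lamb1 (0.856) and Ttc33 (0.854). For Sdc3 they were Lrrc8a (0.858), Pacs2 (0.799) and Rtn3 (0.799), and for Sdc4 Bcr (0.875), Npepps (0.821) and R3hdm1 (0.813).

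Hgf, the ligand of MET, passed the cut-off on 5 of 6 iMet arrays, on no iHRAS* array and on no melanocyte array, with 6.17 to 8.63, 4.09 to 5.74 and 4.86 to 5.21 as the ranges. It was tested against melanocytes only, passing the filter through the iMet arrays, and with dim values raised to the cut-off it was 3.38-fold higher in iMet tumours (limma adjusted p of the fitted difference = 0.000101). RefSeq promoter windows matched 7 of the 10 members, in 8 windows. Those of Sdc1, Sdc3, Sdc4 and Gpc3 held 3, 3, 4 and 3 GC boxes, at 66.0%, 76.4%, 68.0% and 71.6% G or C.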
